A study of Mus musculus with 6 samples.

Results

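Lcn2, Ltf, Saa1, Saa2, Saa3, Hp, Lbp, Orm1 and Pigr encode secreted or secretory proteins of mucosal defense and of the acute-phase response. They were chosen by gene symbol, with no threshold on their values. All 9 were found among the 54532 Ensembl gene IDs measured in each tumor, and 7 of them passed the filter on low values that the group test required, a mean of at least 0.5 FPKM over all tumors (FPKM, fragments per kilobase of gene, scaled to the depth of the library). Saa3 and Orm1 did not pass. RNAseq was carried out on mammary tumors of NeuT/ATTAC mice, to follow the response of tumor gene expression to the antibody. There were 3 libraries from mice treated with isotype IgG and 3 from mice treated with anti-PD-1 mAb. Each library is called a tumor here.

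NeuT/ATTAC mice carry MMTV-NeuT, in which the mammary tumor virus promoter drives Erbb2 in the mammary epithelium, and FAT-ATTAC, a transgene through which the dimerizer AP20187 ablates adipose tissue so that the gland becomes fibrotic. FAT-ATTAC came from C57BL/6 mice and was crossed into FVB. Mice of both groups received AP20187 at 0.4 mg/kg from 6 weeks of age, and 100 μg of IgG or anti-PD-1 antibody 2 times per week from 8 weeks of age. The groups therefore differed in the antibody and not in fibrosis induction, and no tumor without AP20187 was among them. A figure legend of the study describes RNA pooled from the tumors of each group, whereas each library here is labelled as a single replicate. The number of animals behind a library is therefore not known, and the p-values measure the spread between these 3 libraries per group.

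Lipocalin 2 and lactoferrin starve bacteria of iron, the former by binding bacterial siderophores and the latter by binding iron itself. Serum amyloid A, haptoglobin, LPS-binding protein and orosomucoid are acute-phase proteins, made in bulk by the liver when IL-1 and IL-6 act through NF-κB, STAT3 and C/EBP factors, and in smaller amounts by epithelium, fat and macrophages. The polymeric immunoglobulin receptor carries IgA across secretory epithelium. In the mammary gland several of these genes are known from lactation, involution and mastitis, and Lcn2 and Ltf are also contents of neutrophil granules.

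Between 21320856 and 24164478 reads per tumor could be recovered from the deposited values. By the deposited scaling, 3 reads over 2 kb of exons made 0.0586 to 0.0682 FPKM. Values are given in the order of replicates 1, 2 and 3. The tumors were epithelial by their markers, with Epcam between 690 and 1150 FPKM and Krt18 between 685 and 1385 FPKM. Group differences were tested with limma on log2(FPKM + 1) over 15069 genes, a scale that makes differences of low genes look smaller. None of these 15069 genes had a limma adjusted p under 0.05 (0%), and 12.3% of them had an unadjusted p under 0.05. Of the 7 members tested, 0 reached an unadjusted p of 0.05 with limma on log2(FPKM + 1). With limma's voom on the recovered reads 1 did (Lcn2, unadjusted p = 0.0455), where 12.7% of all genes did. After quantile normalization 1 did as well (Lcn2, limma unadjusted p = 0.0103), where 11.6% of all genes did. For a single gene, an exact permutation test with 3 tumors per group reaches 0.1 at best.

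**Figure D1:**
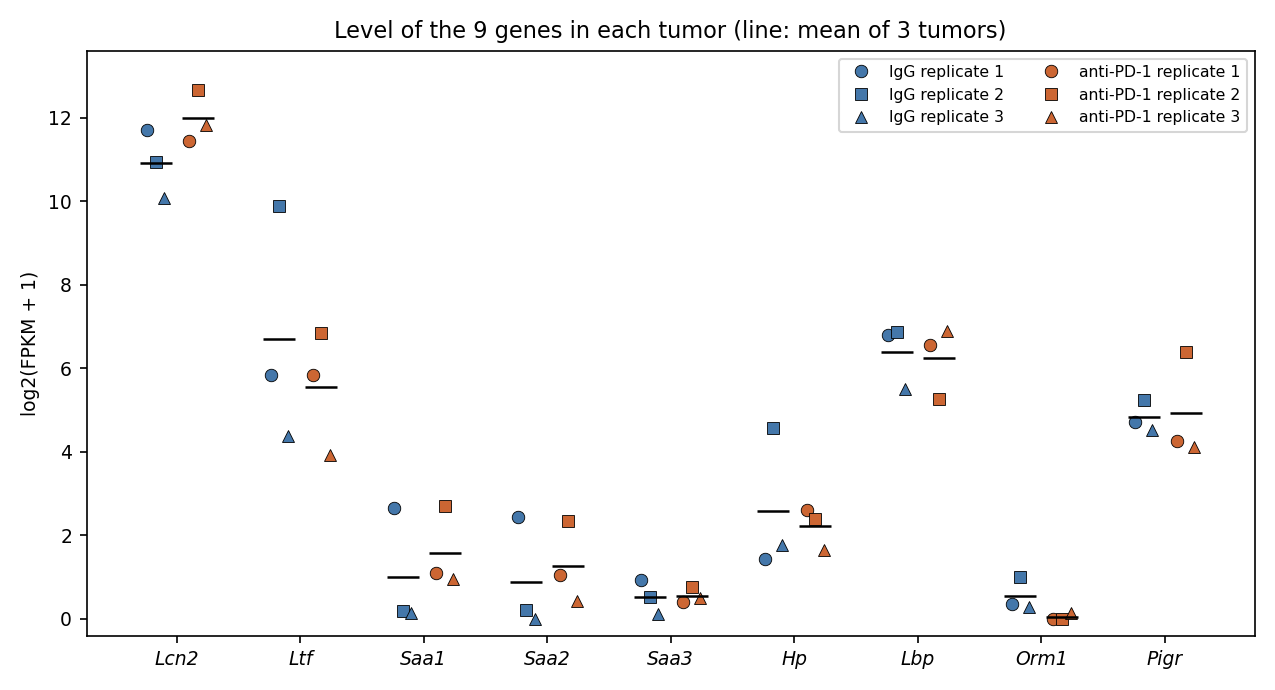
Level of each of the 9 genes, as log2(FPKM + 1) on the vertical axis, in 3 IgG tumors (blue) and 3 anti-PD-1 tumors (orange). Marker shape gives the replicate number and the bar the mean of 3 tumors. Lcn2 lay above 10 on this scale in every tumor, while Saa1, Saa2, Saa3 and Orm1 stayed under 3 and Ltf spanned from 3.93 to 9.89.

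Lcn2 was the most abundant member in every tumor and among the most abundant transcripts of the tumors as a whole. Lcn2 (ENSMUSG00000026822, chromosome 2 from 32384633 to 32388252, minus strand, GRCm38) had 3339, 1974 and 1089 FPKM in the IgG tumors and 2798, 6501 and 3670 FPKM in the anti-PD-1 tumors. Ranked by FPKM among all genes it stood in place 6, 13 and 16 in the IgG tumors and in place 4, 3 and 3 in the anti-PD-1 tumors. Between 69698 and 413565 reads stood behind these values, so that counting error was small beside the spread of the tumors. Anti-PD-1 replicate 2 was the highest and IgG replicate 3 the lowest, and the groups overlapped through IgG replicate 1, which lay above anti-PD-1 replicate 1.

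The mean of Lcn2 was 4323 ± 1936 FPKM (SD, n = 3) in anti-PD-1 and 2134 ± 1134 FPKM (SD, n = 3) under IgG. Its log2 fold change was 1.08 ± 0.50 (SE, limma adjusted p = 0.434), and the exact permutation p was 0.2. It was 1.08 with 0.1 added to FPKM, 1.14 with quantile normalization and 1.07 with voom. With quantile normalization the groups of Lcn2 did not overlap, as in 17.4% of all genes. Its limma unadjusted p was then 0.0103, where 11.6% of all genes were under 0.05. With 1 tumor left out at a time the log2 fold change of Lcn2 was lowest without IgG replicate 3 (0.66) and highest without IgG replicate 1 (1.47).

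The sequence before the RefSeq start of Lcn2 is shown because C/EBP factors are among its known regulators. The 250 bases, taken from RefSeq (GRCm38.p6, chr2:32387740-32387989, minus strand), lie inside the gene span given above, which begins further upstream in GENCODE. They hold 1 match to the letters TTNNGCAA, a C/EBP motif searched on both strands and printed in capitals, and none to the STAT letters TTCNNNGAA or the NF-κB letters GGGNNTTTCC.
Lcn2: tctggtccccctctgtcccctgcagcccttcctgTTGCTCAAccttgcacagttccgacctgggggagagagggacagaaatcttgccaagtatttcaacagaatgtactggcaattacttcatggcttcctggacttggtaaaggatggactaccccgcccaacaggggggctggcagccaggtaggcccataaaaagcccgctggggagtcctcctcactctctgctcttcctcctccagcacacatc

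Ltf set the tumors in another order. Ltf (ENSMUSG00000032496, chromosome 9 from 111019271 to 111042767, plus strand) had 56.8, 953 and 19.8 FPKM in the IgG tumors and 56.4, 116 and 14.3 FPKM in the anti-PD-1 tumors. IgG replicate 2 was 8.24 times as high as the next tumor, anti-PD-1 replicate 2, and the remaining tumors of the groups overlapped. With 78883 reads, lactoferrin stood in place 28 of all genes in IgG replicate 2, against place 381 or lower in every other tumor. The mean was 62.1 ± 50.9 FPKM (SD, n = 3) in anti-PD-1 and 343 ± 528 FPKM (SD, n = 3) under IgG, a log2 fold change of -1.16 ± 1.39 (SE, limma adjusted p = 0.761) with an exact permutation p of 0.6. Without IgG replicate 2 the log2 fold change of Ltf was 0.43, so that this tumor fixed its sign.

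The 2 iron-sequestering genes kept a similar ratio in some tumors and not in others. Lcn2 exceeded Ltf by 49.7 to 58.7 times in IgG replicates 1 and 3 and in anti-PD-1 replicates 1 and 2. In IgG replicate 2 the ratio of Lcn2 to Ltf FPKM was 2.07, and in anti-PD-1 replicate 3 it was 256. Ltf lies on chromosome 9, where the median log2 fold change of 798 tested genes was -0.36 against 0.01 over all tested genes, and the part of this shift in the value of Ltf was not tested.

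Lcn2 and Ltf are neutrophil granule genes as well as epithelial ones, and the other genes of that cell type were low. Of 11 neutrophil markers, 3 (S100a8, S100a9 and Csf3r) passed the filter on low values, all with a log2 fold change above 0 (median 0.53, limma adjusted p at least 0.621). S100a8 and S100a9 reached 21.1 and 4.94 FPKM. The defining granule genes Elane, Mpo, Ngp and Camp and the surface marker Ly6g were at 0 in at least 2 tumors each and at most 0.306 FPKM elsewhere. The 11 markers summed to 2.97 to 12.8 FPKM in IgG tumors and to 6.29 to 26.1 FPKM in anti-PD-1 tumors. The highest sum fell in anti-PD-1 replicate 2 and the lowest in IgG replicate 3, as did the highest and lowest Lcn2. The highest sum was mostly S100a8, with 21.1 FPKM in that tumor, and the list did not follow Lcn2 gene by gene. S100a9 was highest in anti-PD-1 replicate 1 and Csf3r in IgG replicate 2 (1.88 FPKM), where S100a8 was lowest (0.961 FPKM). Lcn2 was 271 to 870 times as high as S100a8 and S100a9 together. In IgG replicate 2, where Ltf peaked, the neutrophil sum was 6.00 FPKM, with Ly6g, Elane, Mpo, Ngp and Camp all at 0. The part of neutrophils in the Lcn2 and Ltf values was not tested.

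Serum amyloid A genes were low and followed 1 tumor of each group. Saa1 (ENSMUSG00000074115, chromosome 7 from 46740497 to 46742980, minus strand) had 5.35, 0.151 and 0.0992 FPKM in the IgG tumors and 1.15, 5.52 and 0.951 FPKM in the anti-PD-1 tumors. Saa2 (ENSMUSG00000057465, chromosome 7 from 46751790 to 46754313, plus strand) had 4.46, 0.165 and 0 FPKM in the same IgG tumors and 1.09, 4.11 and 0.351 FPKM in the same anti-PD-1 tumors. Both genes were high in IgG replicate 1 and anti-PD-1 replicate 2 and near 0 in IgG replicates 2 and 3. The values rest on few reads, 6 to 332 for Saa1 and 0 to 251 for Saa2.

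On the group level neither gene differed beyond the spread of the tumors. The mean of Saa1 was 2.54 ± 2.58 FPKM (SD, n = 3) in anti-PD-1 and 1.87 ± 3.02 FPKM (SD, n = 3) under IgG, with a log2 fold change of 0.59 ± 0.76 (SE, limma adjusted p = 0.780) and an exact permutation p of 0.5. For Saa2 the means were 1.85 ± 1.99 and 1.54 ± 2.53 FPKM (SD, n = 3 each), the log2 fold change 0.39 ± 0.74 (SE, limma adjusted p = 0.854) and the exact permutation p 0.6. The size of these values depended on how low values were scaled. With 0.1 in place of 1 added to FPKM the log2 fold change was 1.59 for Saa1 and 1.41 for Saa2, and with voom on the recovered reads it was 2.10 and 2.76 (limma adjusted p between 0.539 and 0.720 in these 4 cases). Without IgG replicate 1 the log2 fold changes were 1.42 for Saa1 and 1.17 for Saa2, and without anti-PD-1 replicate 2 they were 0.04 and -0.14. Saa1 and Saa2 summed to 1 value gave a log2 fold change of 0.78 ± 0.94 (SE, limma adjusted p = 0.762).

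Saa3 (ENSMUSG00000040026, chromosome 7 from 46711998 to 46715700, minus strand), the serum amyloid A gene best known outside the liver, was lower still and fell under the filter. It had 0.924, 0.432 and 0.0786 FPKM in the IgG tumors and 0.330, 0.696 and 0.420 FPKM in the anti-PD-1 tumors. Behind these values stood 5 to 53 reads per tumor, and the group means of 0.478 ± 0.425 and 0.482 ± 0.191 FPKM (SD, n = 3 each, IgG first) were close to equal (exact permutation p = 1.0). Its 2 highest tumors and its lowest tumor were those of Saa1 and Saa2.

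Saa1, Saa2 and Saa3 lie with Saa4 within 42.3 kb of chromosome 7, and their likeness in sequence bears on how well they can be told apart. Of 50-base windows in the protein-coding transcripts of Saa1, 13.2% also occurred in Saa2 and 1.61% in Saa3, and of 100-base windows none did, so that reads of Saa1 and Saa2 may in part have been split between them. The promoters are shown because the first 2 genes had nearly the same pattern over the tumors while lying on opposite strands. In 250 bases before the start, Saa1 (chr7:46742981-46743230, minus strand) and Saa2 (chr7:46751583-46751832, plus strand) were identical at 238 of 251 aligned positions (94.8%), against 48.5% between Saa1 and Saa3 (chr7:46715677-46715926, minus strand). Capitals mark the C/EBP letters TTNNGCAA or their reverse complement in these RefSeq sequences (GRCm38.p6). The windows of Saa2 and Saa3 run past the GENCODE start given above, and no STAT or NF-κB match was found in the 3 windows.
Saa1: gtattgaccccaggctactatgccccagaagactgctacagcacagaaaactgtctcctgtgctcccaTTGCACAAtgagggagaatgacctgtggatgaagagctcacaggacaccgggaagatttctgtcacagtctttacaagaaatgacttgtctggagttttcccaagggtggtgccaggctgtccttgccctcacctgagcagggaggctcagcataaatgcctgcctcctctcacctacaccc
Saa2: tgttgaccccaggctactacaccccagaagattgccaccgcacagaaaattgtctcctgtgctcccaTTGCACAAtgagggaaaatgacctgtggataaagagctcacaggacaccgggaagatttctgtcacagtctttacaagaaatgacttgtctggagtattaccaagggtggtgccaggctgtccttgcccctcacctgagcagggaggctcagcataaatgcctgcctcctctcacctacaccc
Saa3: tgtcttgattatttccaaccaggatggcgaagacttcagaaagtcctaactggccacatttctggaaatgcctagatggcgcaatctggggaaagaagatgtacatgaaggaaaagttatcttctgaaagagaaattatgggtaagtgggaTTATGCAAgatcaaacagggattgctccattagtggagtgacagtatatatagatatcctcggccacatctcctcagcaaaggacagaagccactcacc

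A promoter was found in RefSeq for 6 of the 9 genes, Lcn2, Ltf, Saa1, Saa2, Saa3 and Pigr. In 5 of these 6, all but Pigr, the 250 bases held a match to TTNNGCAA, while 9.56% of 32851 promoters of this length did. Saa1 and Saa2, identical at 94.8% of aligned positions, hold the same match and are not separate cases. Whether the members hold more such matches than other genes was not tested. The STAT and NF-κB letters were found in 0 of the 6, and in 7.02% and 1.41% of all promoters. These are matches of letters and not sites of binding, which was not measured.

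**Figure D2:**
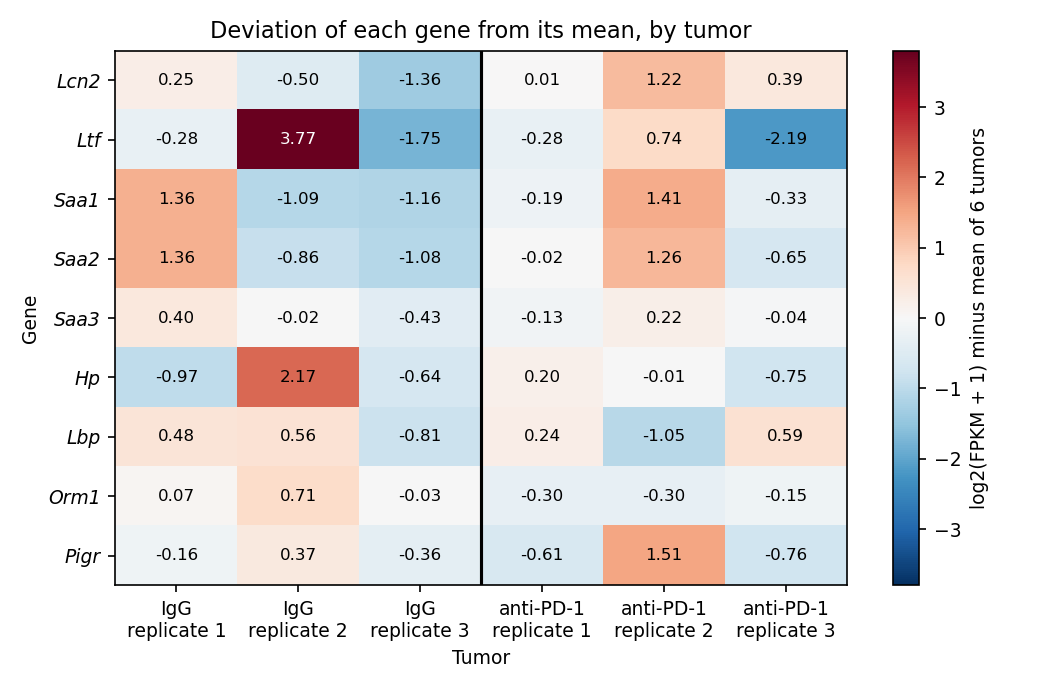
Deviation of log2(FPKM + 1) from the mean of 6 tumors, for each gene (rows) and tumor (columns). Red is above and blue below the mean, and the black line parts IgG from anti-PD-1 tumors. Ltf and Hp were highest in IgG replicate 2 (3.77 and 2.17), Saa1 and Saa2 in IgG replicate 1 and anti-PD-1 replicate 2, and Lcn2 and Pigr in anti-PD-1 replicate 2 (1.22 and 1.51).

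Haptoglobin, which binds free hemoglobin, was highest in the same tumor as Ltf. Hp (ENSMUSG00000031722, chromosome 8 from 109575128 to 109579172, minus strand) had 1.73, 23.0 and 2.42 FPKM in the IgG tumors and 5.11, 4.29 and 2.18 FPKM in the anti-PD-1 tumors. IgG replicate 2, with 887 reads, was 4.50 times as high as the next tumor, anti-PD-1 replicate 1, and all anti-PD-1 tumors lay between the lowest and the highest IgG tumor. The log2 fold change of Hp was -0.37 ± 0.78 (SE, limma adjusted p = 0.871), with an exact permutation p of 0.9. Without IgG replicate 2 it was 0.61. Cd163, the macrophage receptor for haptoglobin-hemoglobin complexes, had 2.12 FPKM in the tumor with the highest Hp and between 0.355 and 5.05 FPKM in the others.

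Lbp, whose product hands bacterial lipopolysaccharide to CD14, was second to Lcn2 among the members in 4 of the 6 tumors. Lbp (ENSMUSG00000016024, chromosome 2 from 158306493 to 158332852, plus strand) had 111, 117 and 44.8 FPKM in the IgG tumors and 93.1, 37.8 and 119 FPKM in the anti-PD-1 tumors. Each group thus held 2 tumors at 93.1 to 119 FPKM and 1 tumor at 44.8 FPKM or less, and the groups overlapped fully. The means were 83.3 ± 41.5 FPKM in anti-PD-1 and 90.8 ± 40.0 FPKM in IgG tumors (SD, n = 3 each), with a log2 fold change of -0.15 ± 0.51 (SE, limma adjusted p = 0.926) and an exact permutation p of 0.7. Anti-PD-1 replicate 2, highest in Lcn2, Saa1 and Pigr, was the lowest tumor in Lbp.

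The partners of LPS-binding protein were measured in the same tumors. Cd14 had 165, 324 and 45.2 FPKM in the IgG tumors and 181, 212 and 116 FPKM in the anti-PD-1 tumors, a log2 fold change of 0.29 (limma adjusted p = 0.879). Tlr4, the signaling receptor, had 6.13, 11.7 and 4.35 FPKM in IgG tumors and 2.97, 4.59 and 3.35 FPKM in anti-PD-1 tumors, and a log2 fold change of -0.77 (unadjusted p = 0.0484, limma adjusted p = 0.406) with groups that overlapped. Tlr4 lies on chromosome 4, where the median log2 fold change of 926 tested genes was -0.40, and the part of this shift in the value of Tlr4 was not tested.

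Orm1 (ENSMUSG00000039196, chromosome 4 from 63344560 to 63348163, plus strand), which encodes the plasma glycoprotein orosomucoid 1, was barely detected. It had 5, 19 and 4 reads in the IgG tumors, or 0.293, 1.02 and 0.211 FPKM, while anti-PD-1 replicates 1 and 2 had 0 reads and replicate 3 had 2, or 0.109 FPKM. Orm1 was the only member whose groups did not overlap (exact permutation p = 0.1), where 12.6% of 28732 genes had groups without overlap when no filter was set. No fold is given, since at most 2 reads stood behind the anti-PD-1 values. Orm1 lies on chromosome 4 as well, and the part of the shift of that chromosome in its values was not tested. Orm1 shares 20.4% of its 50-base windows with Orm2, and the Orm1, Orm2 and Orm3 values summed per tumor averaged 0.595 ± 0.291 FPKM in anti-PD-1 and 1.70 ± 0.985 FPKM under IgG (SD, n = 3 each), a log2 fold change of -0.70 ± 0.33 (SE, limma adjusted p = 0.433) with an exact permutation p of 0.2.

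Pigr peaked in a single anti-PD-1 tumor. Pigr (ENSMUSG00000026417, chromosome 1 from 130826684 to 130852249, plus strand) had 25.4, 37.2 and 22.0 FPKM in the IgG tumors and 18.2, 83.1 and 16.4 FPKM in the anti-PD-1 tumors. Anti-PD-1 replicate 2 was 2.24 times as high as the next tumor, whereas the other 2 anti-PD-1 tumors lay below every IgG tumor. The means were 39.2 ± 38.0 FPKM in anti-PD-1 and 28.2 ± 7.94 FPKM in IgG tumors (SD, n = 3 each), with a log2 fold change of 0.10 ± 0.58 (SE, limma adjusted p = 0.959) and an exact permutation p of 1.0. Without anti-PD-1 replicate 2 the log2 fold change was -0.63 (unadjusted p = 0.0483, limma adjusted p = 0.531).

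The cargo of the receptor, dimeric IgA, is built from the heavy chain Igha and the joining chain Jchain. Igha had between 0.572 and 4.45 FPKM and Jchain between 0.180 and 3.48 FPKM. Both were lowest in anti-PD-1 replicate 2, the tumor with the highest Pigr.

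**Figure D3:**
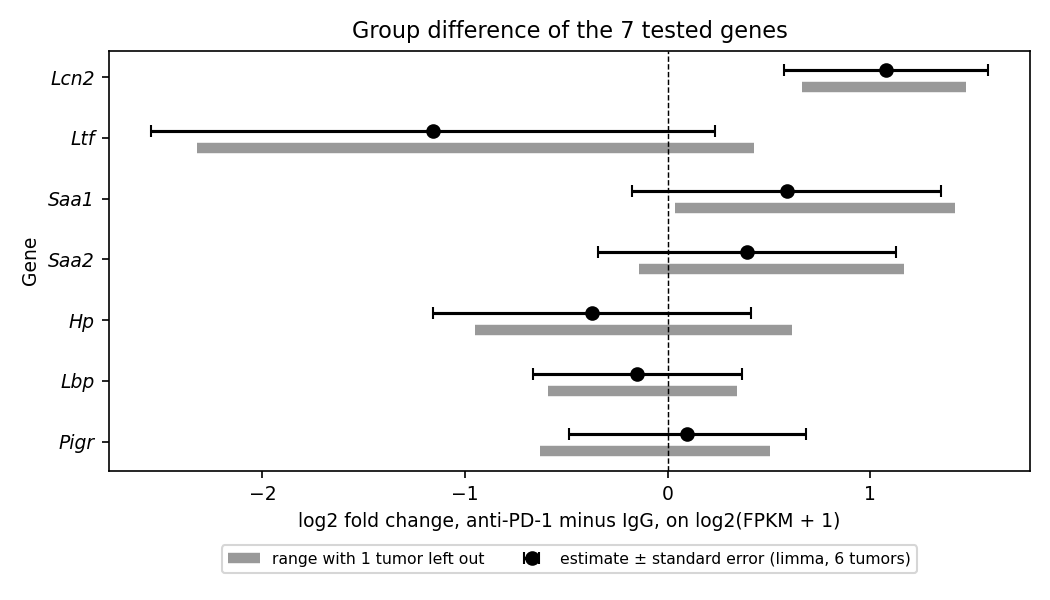
Log2 fold change (anti-PD-1 minus IgG, on log2(FPKM + 1), horizontal axis) of the 7 tested genes. Points with bars are limma estimates with 1 standard error from 6 tumors, and gray bars span the estimates with 1 tumor left out at a time. The gray bars of Lcn2 (0.66 to 1.47) and Saa1 (0.04 to 1.42) stayed above 0, while those of Ltf, Saa2, Hp, Lbp and Pigr crossed 0.

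The 7 tested members did not share a direction between the treatments. Of the 7, 4 had a log2 fold change above 0 (Lcn2, Saa1, Saa2 and Pigr) and 3 below 0 (Ltf, Hp and Lbp), where 50.8% of all tested genes were above 0. Their median log2 fold change was 0.10, against 0.01 over all tested genes. The groups overlapped in all 7, while 18.1% of tested genes had groups without overlap. Without IgG replicate 1 the groups no longer overlapped in Lcn2, Saa1 and Saa2, and Lcn2 and Saa1 had an unadjusted p under 0.05 (0.0167 and 0.0377, limma adjusted p at least 0.179). In that fit of 2 tumors against 3, 35.5% of all genes had groups without overlap and 17.8% an unadjusted p under 0.05. Without IgG replicate 2 all 7 had a log2 fold change above 0, and without IgG replicate 3 only 2 of the 8 members then tested (Lcn2 and Saa1) did.

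The members varied strongly within each treatment. The within-group SD of log2(FPKM + 1) was 0.72 for Lcn2, 0.82 for Lbp, 0.94 for Pigr, 1.18 for Saa2, 1.22 for Saa1, 1.27 for Hp and 2.28 for Ltf, against a median of 0.27 over all tested genes. Between 92.7% (Lcn2) and 99.8% (Ltf) of tested genes had a smaller SD. The order of the tumors differed from gene to gene. IgG replicate 3 was lowest in Lcn2, Saa1, Saa2 and Saa3, anti-PD-1 replicate 3 in Ltf and Pigr, anti-PD-1 replicate 2 in Lbp and IgG replicate 1 in Hp. Saa1 and Saa2 were the closest pair of members, with deviations from their means that differed by 0.16 on the log2 scale on average over 6 tumors, and Ltf and Lbp the most distant at 1.66.

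The protein-coding genes with the most similar pattern were sought among 12402 tested genes, by the mean absolute difference of the log2 deviations over the 6 tumors. For Lcn2 they were Tns4 (0.16) and Efemp2 (0.17), against a median difference of 0.66 over all genes compared. For Saa1 and Saa2 the closest was Igsf8 (0.16 and 0.18), followed by Fgd3 (0.26) for Saa1 and Depp1 (0.20) for Saa2. Efemp2 had 23.6, 15.9 and 7.92 FPKM in the IgG tumors and 20.9, 33.1 and 25.0 FPKM in the anti-PD-1 tumors, and both Efemp2 and Tns4 put the 6 tumors in the same order as Lcn2.

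For Hp the closest genes were Apobec2 (0.23) and Wfdc12 (0.29), and both were highest in IgG replicate 2, at 4.54 and 14.4 FPKM. For Ltf no gene came near, the closest being Klk10 (0.80) and Krt19 (0.80) at a median difference of 1.51. Krt19, a luminal keratin, had 77.9 FPKM in IgG replicate 2 and between 1.70 and 7.84 FPKM in the other tumors. For Lbp the closest were Glipr2 (0.19) and Dmkn (0.20), and for Pigr Pnp (0.25) and the interferon-stimulated gene Isg15 (0.25).

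Other cell types could also carry these transcripts, and their markers were summed per tumor. In bulk tumor RNA fewer cells of a type and less RNA per cell cannot be told apart. Of 11 hepatocyte markers, 3 (Alb, Ahsg and Apoa2) passed the filter, and the list summed to 1.34 to 11.9 FPKM in IgG tumors and 3.56 to 7.97 FPKM in anti-PD-1 tumors. Its highest sum was in IgG replicate 2, which was also highest in Hp and Orm1 and had 6.12 FPKM of Alb, a gene at 0 to 1.70 FPKM in the other tumors. The part of these transcripts in the Hp and Orm1 values was not tested. Of the 3 tested, Alb and Apoa2 had a log2 fold change below 0 (-1.40 and -0.20, limma adjusted p = 0.426 and 0.859) and Ahsg one above 0 (1.53). Ahsg, the most abundant marker of the list, had 0.269 to 1.60 FPKM in IgG tumors and 2.97 to 7.15 FPKM in anti-PD-1 tumors (unadjusted p = 0.00424, limma adjusted p = 0.344). Of 9 adipocyte markers, 3 passed the filter, with sums of 8.26 to 12.7 FPKM in IgG tumors and 4.98 to 12.6 FPKM in anti-PD-1 tumors and log2 fold changes below 0 (median -0.32). Fabp4 and Lpl led the list by mean FPKM, at no more than 5.64 and 3.23 FPKM in a tumor. Cfd reached 4.49 FPKM in IgG replicate 3, and the defining marker Adipoq 1.19 FPKM at most.

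Markers of alveolar luminal cells, the cells that make milk, were abundant, and their sum was highest in the tumor with the most Ltf. The 7 genes summed to 3559, 7377 and 3026 FPKM in the IgG tumors and to 2502, 1851 and 3913 FPKM in the anti-PD-1 tumors. All 7 had a log2 fold change below 0, with a median of -0.60, and 1 of them (Kit, unadjusted p = 0.0115, limma adjusted p = 0.346) had an unadjusted p under 0.05. The list was carried by Csn3 (1594 to 5677 FPKM) and Lalba (30.2 to 1238 FPKM). Lalba was highest in IgG replicate 3, with 864 FPKM in IgG replicate 2 and 577 FPKM in anti-PD-1 replicate 3, the tumor lowest in Ltf. Every other gene of the list was highest in IgG replicate 2. Csn2, chosen after its values were seen, had 378 FPKM in IgG replicate 2 and 5.09 to 136 FPKM in the other tumors. The lowest alveolar sum was in anti-PD-1 replicate 2, the highest tumor in Lcn2 and Pigr. Lalba, Wap and Kit were lowest there, while Csn3 and Csn1s1 were lowest in IgG replicate 3. Elf5 was lowest in anti-PD-1 replicate 1 and Csn2 in anti-PD-1 replicate 3. The part of alveolar cells in the Ltf, Lcn2 and Pigr values was not tested.

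Macrophage markers (7 genes) summed to 215 to 385 FPKM in IgG tumors and 283 to 454 FPKM in anti-PD-1 tumors, and all 7 had a log2 fold change above 0. The complement genes C1qa and C1qb led the list, at 97.3 to 208 and 52.5 to 128 FPKM. Among them Cd68 had an unadjusted p of 0.00438 (limma adjusted p = 0.344), with 13.8 to 18.3 FPKM in IgG tumors and 22.1 to 30.7 FPKM in anti-PD-1 tumors. Plasma cell markers (7 genes) summed to 49.9 to 99.3 and 49.2 to 99.6 FPKM, basal markers (5 genes) to 16.8 to 24.1 and 14.2 to 37.8 FPKM, and epithelial markers (6 genes) to 1914 to 2652 and 2521 to 3648 FPKM, in IgG and anti-PD-1 tumors respectively. Of these lists Derl3, Krt17 and Krt19 had a limma p under 0.05 (0.0437, 0.0266 and 0.0471, adjusted p at least 0.370), each lower in anti-PD-1 tumors without overlap. In the epithelial list, though, 4 of 6 genes had a log2 fold change above 0, at a median of 0.34, and Erbb2 and Epcam were higher in anti-PD-1 tumors without overlap (0.34 and 0.43, limma adjusted p = 0.424 and 0.462). In the plasma cell list 3 of 6 tested genes were above 0 and in the basal list 1 of 4. The most abundant genes of the 3 lists were Sdc1 (18.2 to 57.9 FPKM) and Igkc (5.29 to 31.9 FPKM), Acta2 (10.3 to 37.0 FPKM) and Krt14 (0.311 to 2.99 FPKM), and Epcam and Krt18.

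**Figure D4:**
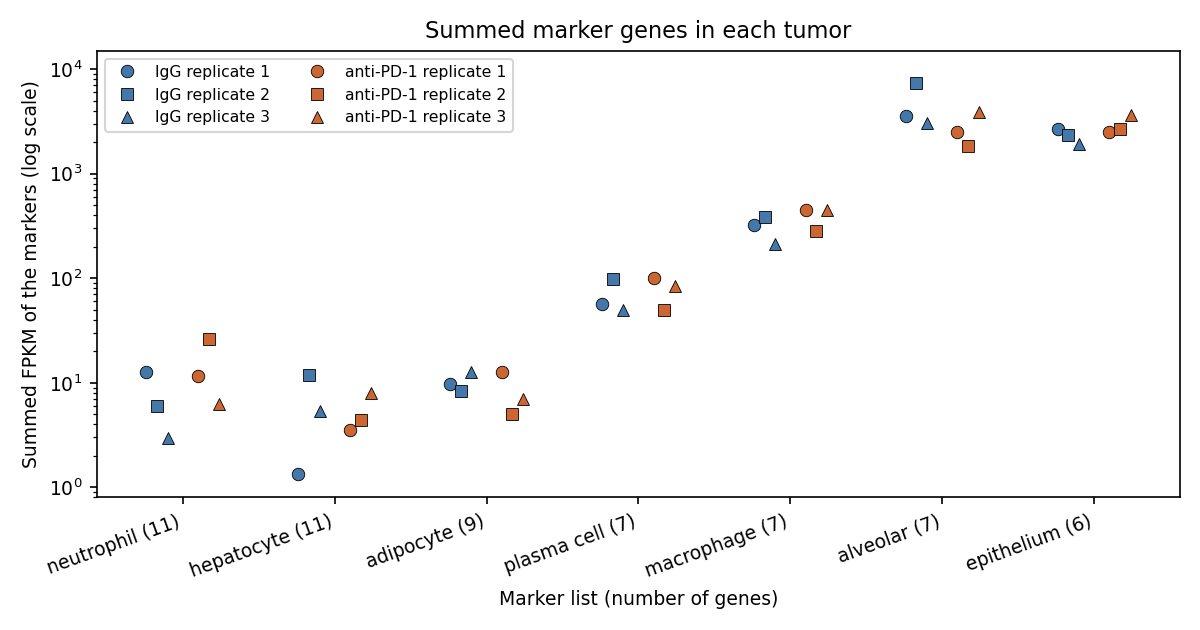
Summed FPKM of marker genes (vertical axis, log scale) for 7 cell types in 3 IgG (blue) and 3 anti-PD-1 (orange) tumors, with marker shape for the replicate number. Neutrophil, hepatocyte and adipocyte sums were at most 26.1 FPKM in every tumor, and alveolar and epithelial sums at least 1851 FPKM.

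Cytokines that induce acute-phase genes were low. Of 12 listed, 5 passed the filter, Il17a, Il17f and Il22 were at 0 in all tumors, and Il6 was at most 0.0849 FPKM. Lif, a cytokine of the IL-6 family, had 2.15, 1.24 and 0.782 FPKM in the IgG tumors and 2.10, 5.13 and 3.75 FPKM in the anti-PD-1 tumors, a log2 fold change of 0.95 (unadjusted p = 0.0193, limma adjusted p = 0.355). Il1b, the most abundant of them, was at 1.55 to 4.00 FPKM in IgG tumors and 2.69 to 7.17 FPKM in anti-PD-1 tumors. The median log2 fold change of the 5 was 0.36.

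Their receptors were present in the tumors. Of 12 receptor genes 11 were tested, 8 had a log2 fold change above 0 and the median was 0.20. Tnfrsf1a, the main TNF receptor of epithelium, had 72.9, 47.7 and 63.6 FPKM in IgG tumors and 103, 80.8 and 100.4 FPKM in anti-PD-1 tumors, a log2 fold change of 0.64 without overlap (unadjusted p = 0.0174, limma adjusted p = 0.355). Il17re, a subunit of the IL-17C receptor, had a log2 fold change of 0.20.

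Among 14 transcription regulators of the response, all tested, 9 had a log2 fold change above 0 and 3 an unadjusted p under 0.05, against 12.3% of all tested genes. Nfkbiz, a nuclear IκB protein that NF-κB needs at the Lcn2 gene, had 9.39, 6.90 and 6.18 FPKM in IgG tumors and 10.1, 14.7 and 14.9 FPKM in anti-PD-1 tumors, a log2 fold change of 0.74 (unadjusted p = 0.0107, limma adjusted p = 0.344). Nfkb2, an NF-κB subunit, had 17.4, 10.8 and 9.87 FPKM in IgG tumors and 19.5, 23.7 and 20.8 FPKM in anti-PD-1 tumors, a log2 fold change of 0.75 (unadjusted p = 0.0128, limma adjusted p = 0.349). Cebpa, a C/EBP factor of differentiated cells, had 18.2, 18.7 and 15.6 FPKM in IgG tumors and 14.2, 7.38 and 10.9 FPKM in anti-PD-1 tumors, a log2 fold change of -0.67 (unadjusted p = 0.0236, limma adjusted p = 0.366). In these 3 genes the groups did not overlap, as in 18.1% of all tested genes. The inducible factor Cebpb was the most abundant of the list, at 181 to 289 FPKM, with a log2 fold change of -0.05, followed by the NF-κB inhibitor Nfkbia at 28.6 to 68.0 FPKM and -0.10.

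Other acute-phase genes were mostly under the filter, and of 21 listed 9 were tested, 5 with a log2 fold change above 0 and 4 below, at a median of 0.05. Crp, Apcs, Hamp, Saa4, Fga, Fgb and Orm3 were among those not tested. Serpina3n, a secreted serine protease inhibitor of the acute phase, had 46.2, 31.5 and 25.2 FPKM in the IgG tumors and 62.9, 174 and 172 FPKM in the anti-PD-1 tumors. Its log2 fold change was 1.87 (unadjusted p = 0.00295, limma adjusted p = 0.344), and its neighbor Serpina3m, at most 2.45 FPKM, had 1.06 (unadjusted p = 0.00752, limma adjusted p = 0.344). Neither overlapped between the groups. Cp, the copper carrier ceruloplasmin, had 122, 235 and 34.5 FPKM in IgG tumors and 53.8, 110 and 77.0 FPKM in anti-PD-1 tumors, a log2 fold change of -0.37 (limma adjusted p = 0.845). Like Ltf and Hp it was highest in IgG replicate 2.

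Of 21 other antimicrobial genes 12 were tested, 8 with a log2 fold change above 0 and 4 below, at a median of 0.08. Pglyrp1, a peptidoglycan recognition protein, had 180, 27.6 and 46.1 FPKM in the IgG tumors and 348, 624 and 420 FPKM in the anti-PD-1 tumors, without overlap. Its log2 fold change was 2.86 (unadjusted p = 0.00264, limma adjusted p = 0.344). Chil1, a chitinase-like protein, had 965, 120 and 336 FPKM in IgG tumors and 727, 1000.5 and 725 FPKM in anti-PD-1 tumors, a log2 fold change of 1.25 (limma adjusted p = 0.482). Lalba, the milk protein α-lactalbumin, had 30.2 to 1238 FPKM over the tumors and a log2 fold change of -2.35 (limma adjusted p = 0.440).

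Of 12 receptors and partners of the members 9 were tested, 4 with a log2 fold change above 0 and 5 below, at a median of -0.05. The lipocalin 2 receptor Slc22a17 had 12.4, 9.05 and 14.2 FPKM in IgG tumors and 11.7, 13.2 and 21.8 FPKM in anti-PD-1 tumors (log2 fold change 0.34, limma adjusted p = 0.624). The other lipocalin 2 receptor, Lrp2, was at most 0.00936 FPKM. Mmp9, the protease that lipocalin 2 binds, had 0.162 to 0.282 FPKM in IgG tumors and 0.466 to 0.695 FPKM in anti-PD-1 tumors and was under the filter. Fpr2, a receptor for serum amyloid A, was at most 0.322 FPKM.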

How the data were processed

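RNAseq of 6 mammary tumors was analyzed from the values the authors deposited, which are FPKM for 54532 Ensembl gene IDs, 1 file per tumor. By the methods of the study the reads were checked with FastQC 0.11.9, trimmed with Cutadapt 3.5, and aligned and counted with RSEM 1.3.1 on Ensembl release 99 (mm10, index built with Bowtie2 2.4.1). How the FPKM was made, and whether counting used strand, is not given in the sources used here.

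GENCODE release M21 (GRCm38) matched 54495 of the IDs and gave symbols, coordinates and merged exon lengths. FPKM times exon length was a whole multiple of 1 read, within 0.1, in 97.0% to 97.3% of the detected values of each tumor, and for all 9 genes. Reads came from that step. The exon lengths of Saa1 (2478 bases) and Saa2 (2518 bases) cover nearly the whole gene, which lowers their FPKM. None of the 9 genes overlaps another annotated gene.

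FPKM values were divided by median-of-ratios factors (1.00 to 1.01), and log2(FPKM + 1) was computed. The test, for all genes whose mean reached 0.5 FPKM, was that of limma 3.58.1 (R 4.3.3, lmFit, eBayes with trend, two-sided, Benjamini-Hochberg over 15069 genes). Single genes were also tested with a two-sided exact permutation test. The authors used DESeq2 1.36.0 on their counts. Here the deposited FPKM was the basis of the test, and the recovered reads were tested with voom as an alternative. No 2 tumors held identical profiles (Pearson correlation across genes, which are not independent, 0.892 to 0.958). Besides the 9 genes, the genes named from each list were those with an unadjusted p under 0.05, the 2 most abundant, and direct partners of a member, with exceptions stated in the text, and the 2 most similar genes per member. Members, lists and motifs were chosen with earlier results of these data known. Alternatives were 0.1 added to FPKM, no filter, a filter at 2 FPKM, the deposited FPKM with no scaling, quantile normalization, no trend, a replicate block, each tumor left out, voom on recovered reads, and paralogs summed. Promoters are those of RefSeq (GRCm38.p6) and were aligned with Biopython 1.88. Python 3.11.15 was used.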

Additional observations from a re-analysis of the deposited data

How the results depend on the processing

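No member had a limma adjusted p under 0.05 in any of the 15 alternatives. The number of members with an unadjusted p under 0.05 was 0 and became 1 without a filter on low FPKM (Orm1), 1 with quantile normalization (Lcn2) and 1 with voom on the recovered reads (Lcn2). Over all genes these fits had 8.01%, 11.6% and 12.7%. Members without overlap went from 0 to 1 without the filter, which adds Orm1, and to 1 with quantile normalization (Lcn2). In these fits 12.6% and 17.4% of all genes had no overlap. Leaving out single tumors, the number past an unadjusted p of 0.05 ranged from 0 to 2 (6.36% to 17.8% of all genes), the number without overlap from 0 to 3 (23.0% to 35.5% of all genes), the number with a log2 fold change above 0 from 2 to 7 and the median log2 fold change from -0.14 to 0.51. In these fits the log2 fold change ranged from -2.32 to 0.43 for Ltf, -0.95 to 0.61 for Hp, -0.59 to 0.34 for Lbp, -0.14 to 1.17 for Saa2 and -0.63 to 0.51 for Pigr, so that the sign of each turned with single tumors. Saa3 passed the filter in 2 of these 6 fits, with -0.17 and 0.11. The cause was not tested. The median log2 fold change was -0.03 with the filter at 2 FPKM, which drops Saa2, and -0.15 with paralogs summed, where Saa1 and Saa2 count once and the Orm sum enters, and in both 3 members were above 0. The log2 fold changes of Saa1 and Saa2 were 1.59 and 1.41 with 0.1 added and 2.10 and 2.76 with voom. The remaining alternatives turned the sign of no single member. Over all tested genes the number with an adjusted p under 0.05 went from 0 to 12 without IgG replicate 1, and to 1 without IgG replicate 3, without anti-PD-1 replicate 2 and with voom.

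With the replicate number as a block the median log2 fold change was 0.10, which a block cannot move in this balanced layout, and 0 members had an unadjusted p under 0.05, against 11.4% of all genes. The deviations of same-numbered tumors correlated at -0.16, 0.01 and 0.19 for numbers 1, 2 and 3. Those of differently numbered tumors correlated at -0.26 to 0.24. With groups of 3 these correlations cannot tell whether the numbers pair the tumors. With the block the limma unadjusted p of Ltf was 0.106, against 0.432 without it, the largest move of a member. Few reads stood behind Orm1 in every tumor (at most 19, in IgG replicate 2), and behind Saa1 and Saa2 in IgG replicates 2 and 3 (0 to 10).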
